A study of Mus musculus with 14 samples.

Results

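MHC class I antigen presentation was described through 10 of the 55367 gene symbols in the deposited count tables, taken by symbol from both tables. H2-K1, H2-D1, H2-Q7 and H2-T23 encode class I heavy chains and B2m encodes beta-2 microglobulin. Tap1, Tap2 and Tapbp encode the peptide transporter and tapasin, and Psmb8 and Psmb9 encode inducible proteasome subunits. The RNA came from lineage-negative mouse bone marrow cells, that is, marrow from which mature blood cells were removed, labelled wild-type in genotype and grown in IMDM with serum, SCF, IL6 and IL3. For the first experiment the cells were transduced with a pSMAL lentivirus for luciferase, the control (3 libraries), or for SETBP1-D868N, a mutant form of the nuclear protein SETBP1 (3 libraries). In the second, all cells carried SETBP1-D868N and received the solvent DMSO (4 libraries) or 2.5 µM PF-9363 (4 libraries) for 4 days. PF-9363 is an inhibitor of MYST histone acetyltransferases, and the study asked what this inhibition does in SETBP1-mutant cells. The labels do not give the mouse strain, age or sex, the promoter of the transgene, or whether libraries came from separate cultures or animals, so p-values here measure the spread between these libraries, which may be technical.

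Class I molecules show peptides from inside the cell to CD8 T cells. The proteasome cuts proteins into peptides, TAP moves the peptides into the endoplasmic reticulum, and tapasin holds an empty heavy chain with beta-2 microglobulin at TAP until a peptide fits. Interferon signalling is known to raise most of these genes, and the inducible subunits Psmb8, Psmb9 and Psmb10 take the places of the constitutive subunits Psmb5, Psmb6 and Psmb7 in the proteasome core.

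Depth ranged from 60147266 to 68730322 counts per library in experiment 1 and from 7083731 to 10359093 in experiment 2. All 10 genes passed the expression filter in both experiments. Values are CPM, counts scaled to a common library total by the TMM method, and "called" means an adjusted p under 0.05 in edgeR's quasi-likelihood test, run over 15794 genes for SETBP1-D868N and 13456 for PF-9363. The mouse Setbp1 row had a mean of 0.0892 CPM in luciferase and 0.339 CPM in SETBP1-D868N libraries (log2 1.91, edgeR adjusted p = 0.000660), and the labels do not give the species of the transgene. The progenitor markers Kit, Cd34 and Gata2 were present in all 4 groups, while the 8 lymphocyte markers summed to at most 0.722 CPM in experiment 1 and 2.06 in experiment 2. The experiments differed in library kit and RNA input, and genes annotated as antisense took 0.0957% to 0.104% of counts in experiment 1 and 1.41% to 1.61% in experiment 2. No test was made between the experiments.

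With SETBP1-D868N, 8 of the 10 class I genes fell, Tap2 rose and Psmb8 was not called. The falls were small, with a median log2 fold change of -0.16 over the 10 genes beside 0.0043 over all genes tested. For reference, 22.7% of all tested genes were called lower in this comparison and 24.5% higher. The groups did not overlap for 9 of the 10 genes, as was so for 56.7% of all tested genes. With PF-9363 the set split. H2-K1, H2-D1, H2-T23, B2m and Tapbp rose, Tap2, Psmb8 and Psmb9 fell, and H2-Q7 and Tap1 were not called. In that comparison 36.6% of all tested genes were called higher and 39.4% lower, and groups did not overlap for 8 of the 10 genes beside 70.3% of all tested genes. The median over the 10 genes was 0.36, beside -0.04 over all genes tested, and 0.13 under library size scaling. Counts of calls are read beside those shares, and the size of each change is given gene by gene. In these bulk libraries, fewer cells of a type and less RNA per cell cannot be told apart.

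**Figure D1:**
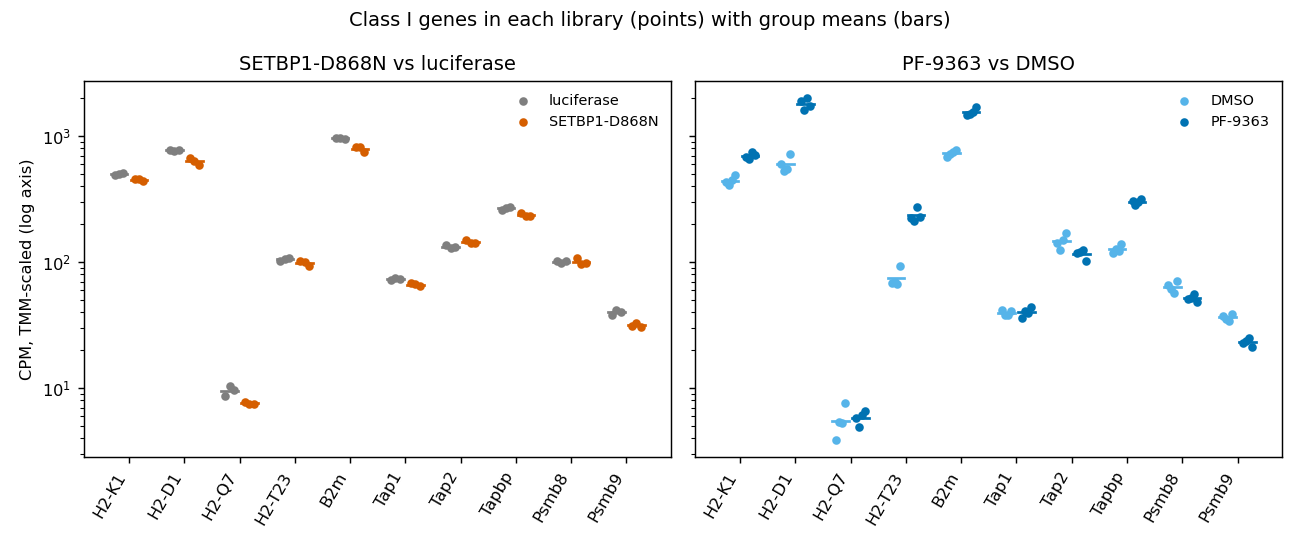
CPM (log axis) of the 10 class I genes in each library, luciferase and SETBP1-D868N on the left and DMSO and PF-9363 on the right, with bars at group means. H2-D1, H2-K1, H2-T23, B2m and Tapbp of the PF-9363 libraries lie above all 4 DMSO libraries, while the shifts on the left are small.

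H2-K1 and H2-D1 encode the classical heavy chains that present peptides in most cells. H2-K1 lies at chr17:33996017-34000347 and H2-D1 at chr17:35262730-35267499 (GRCm38, GENCODE M21), 1.26 Mb apart. The start-site regions of the heavy chains and B2m are shown because they carry the elements known to control class I genes. Capitals mark the kappa B letters GGGATTCCC, the interferon element GAANNGAAA or GAAANNGAA, the X2 letters TGACG and the Y box CCAAT, searched on both strands in the 250 bases before each RefSeq start (GRCm38.p6). H2-D1 and H2-T23 are shown by their interferon element and its surroundings, in at most 30 bases, since that element lies within the first exon of a GENCODE M21 transcript that begins farther upstream than the RefSeq start.
H2-K1 chr17:34000348-34000469, minus strand: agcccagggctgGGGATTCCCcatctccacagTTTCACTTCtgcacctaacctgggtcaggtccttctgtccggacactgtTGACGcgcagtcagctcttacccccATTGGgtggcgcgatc
H2-D1 chr17:35262924-35262952, plus strand: GGGATTCCCcatctcctcagTTTCACTTC
H2-Q7 chr17:35439011-35439151, plus strand: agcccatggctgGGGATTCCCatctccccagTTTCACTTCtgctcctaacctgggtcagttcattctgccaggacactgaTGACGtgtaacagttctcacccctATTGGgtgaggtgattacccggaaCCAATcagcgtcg
H2-T23 chr17:36032806-36032834, minus strand: tcctactgctTTCTCTTTCataaagacac
B2m chr2:122147536-122147646, plus strand: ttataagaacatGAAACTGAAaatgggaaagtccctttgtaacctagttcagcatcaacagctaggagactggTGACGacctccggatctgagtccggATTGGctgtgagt

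Of the 10 genes, 9 had a promoter entry in the RefSeq table and Tap2 had none. For H2-D1, Tapbp, Psmb8 and Psmb9 all bases searched lay inside the GENCODE M21 gene, which begins farther upstream. The bases before that first start were not searched for these genes, so a missing match there is not known. The kappa B letters were in the promoters of H2-K1, H2-D1 and H2-Q7, and in 0.301% of all 32851 promoters. GAANNGAAA was in the same 3 promoters and in 6.31% of all, and GAAANNGAA was in B2m and H2-T23 and in 7.13% of all. The gamma-activated letters TTCNNNGAA were found in Psmb8 and in 7.02% of all promoters. TGACG was in 6 of the 9 promoters and 17.8% of all, and CCAAT in 8 of the 9 (all but Psmb8) and 33.8% of all. Over 111 bases, from 12 bases before the kappa B letters to the end of the first Y box, H2-K1 and H2-D1 were identical at 100 (90.1%). H2-K1, H2-D1 and H2-Q7 hold the same elements in the same order. A match describes these letters and is not a measured binding site.

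H2-K1 measured 494, 499.9 and 512 CPM in the luciferase libraries and 458, 457 and 444 in the SETBP1-D868N libraries. The groups did not overlap, and the log2 change was -0.15 (SE 0.025, edgeR adjusted p = 0.000378). With DMSO it measured 432, 409, 447 and 489.5 CPM and with PF-9363 684, 656, 753 and 705. All PF-9363 libraries were above all DMSO libraries, with a log2 change of 0.65 (SE 0.064, edgeR adjusted p = 2.48e-10), a 1.57-fold rise.

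H2-D1 measured 782, 758 and 774 CPM with luciferase and 672, 630.4 and 593 with SETBP1-D868N. It fell by 0.29 on the log2 scale (SE 0.041, edgeR adjusted p = 0.000288) without overlap. In the second experiment the DMSO libraries measured 598, 528, 548 and 720.4 CPM and the PF-9363 libraries 1917, 1616, 2004 and 1726. The groups were far apart, and the rise was 3.03-fold (log2 1.60, SE 0.095, edgeR adjusted p = 2.32e-10). H2-D1 therefore rose more than H2-K1. Within libraries, the ratio of H2-D1 to H2-K1 counts went from 1.34 with DMSO to 2.59 with PF-9363, a log2 difference of 0.95 without overlap (two-sided exact permutation p = 0.02857, the smallest that 4 against 4 allows, and 0.02857 after adjustment over 7 ratios). With SETBP1-D868N the same ratio fell by 0.14 on the log2 scale without overlap (exact permutation p = 0.1, the smallest that 3 against 3 allows, adjusted p = 0.175).

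H2-T23 encodes Qa-1, a nonclassical heavy chain that presents peptides from the leader sequences of other class I chains to NK cell receptors. It lies at chr17:36029773-36032855. With luciferase it measured 102, 106 and 109 CPM and with SETBP1-D868N 101, 101 and 94.1. The highest SETBP1-D868N library was just below the lowest luciferase library. The log2 change was -0.09 (SE 0.036, edgeR adjusted p = 0.0498), and the call was lost under 8 of the 14 alternative fits, among them DESeq2 (adjusted p = 0.0635), scaling by library size (-0.05, adjusted p = 0.345) and leaving out luciferase 2 (adjusted p = 0.136), luciferase 3 (adjusted p = 0.191) or SETBP1-D868N 3 (adjusted p = 0.160). With DMSO, H2-T23 measured 68.6, 69.2, 67.1 and 93.8 CPM and with PF-9363 223, 213, 274 and 229. The DMSO 4 library stood above the other 3, yet below all PF-9363 libraries. The rise was 3.14-fold (log2 1.65, SE 0.12, edgeR adjusted p = 5.48e-08), and 1.77 on the log2 scale without DMSO 4.

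H2-Q7 encodes Qa-2, another nonclassical heavy chain, at chr17:35439155-35443773. It was the weakest of the 10 genes, with 8.71, 10.4 and 9.60 CPM with luciferase and 7.73, 7.52 and 7.47 with SETBP1-D868N. It fell by 0.34 on the log2 scale (SE 0.074, edgeR adjusted p = 0.00251) without overlap. In the second experiment the groups overlapped. The DMSO libraries measured 3.87, 5.39, 5.25 and 7.62 CPM, from 39 to 84 counts, and the PF-9363 libraries 5.77, 4.90, 6.07 and 6.62, from 38 to 61 counts. The log2 fold change was 0.08 with a 95% interval, taken from the SE, from -0.34 to 0.49 (edgeR adjusted p = 0.755), so changes inside that range could not be resolved at this depth. Scaling by library size gave -0.15.

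The class I heavy chain genes are close copies, so the split of reads between them is uncertain. They also differ between mouse strains, and since the strain is not given, how well reads of H2-K1, H2-D1, H2-Q7 and H2-T23 map to the reference is unknown, which bears on their levels, ratios and shares. Of all 50-base windows in annotated transcripts, 9.63% of those of H2-K1, 12.8% of H2-D1, 26.4% of H2-Q7 and 13.6% of H2-T23 also occur in other genes, H2-Q10 being first among them for H2-Q7. B2m shares none. Counts of 15 H2-K, H2-D, H2-Q and H2-T genes were therefore also summed, which does not depend on how reads were split among these 15 but restores no read that went to other genes or was dropped. The sum fell from 1479 ± 13.8 CPM (SD, n = 3) to 1271 ± 53.6 (SD, n = 3) with SETBP1-D868N, a log2 change of -0.22 (SE 0.030, edgeR adjusted p = 8.30e-05). It rose from 1177 ± 136 (SD, n = 4) to 2881 ± 238 (SD, n = 4) with PF-9363, a 2.45-fold rise (log2 1.29, edgeR adjusted p = 6.40e-14). As split in the deposited counts, H2-D1 made up 50.8% of the summed reads with DMSO and 63.0% with PF-9363, while the share of H2-K1 went from 37.9% to 24.3%. With SETBP1-D868N the H2-D1 share went from 52.2% to 49.7%.

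B2m, at chr2:122147686-122153083, is the only one of the 10 genes outside chromosome 17. It measured 965, 968 and 956 CPM with luciferase and 814, 815 and 750.4 with SETBP1-D868N. The groups did not overlap and the log2 change was -0.28 (SE 0.032, edgeR adjusted p = 1.76e-05). With DMSO it measured 687, 726, 745 and 779.7 CPM and with PF-9363 1470, 1502, 1566 and 1700. Every PF-9363 library was well above every DMSO library, a 2.12-fold rise (log2 1.09, SE 0.063, edgeR adjusted p = 2.88e-15). Relative to B2m within libraries, H2-K1 fell by 0.43 on the log2 scale and H2-D1 rose by 0.52 with PF-9363, both without overlap (each two-sided exact permutation p = 0.02857, adjusted 0.02857). With SETBP1-D868N the H2-K1 to B2m ratio rose by 0.13 on the log2 scale without overlap (exact permutation p = 0.1, adjusted 0.175), and the H2-D1 to B2m ratio differed by -0.008 with overlapping groups (exact permutation p = 0.9).

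**Figure D2:**
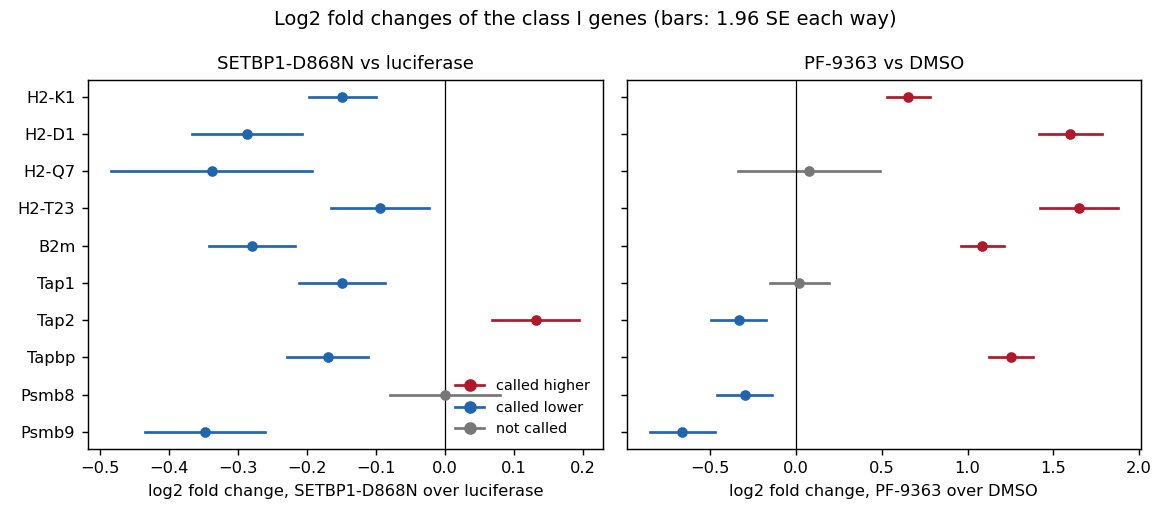
Log2 fold changes of the 10 class I genes with bars for their 95% intervals, SETBP1-D868N over luciferase on the left and PF-9363 over DMSO on the right; the 2 axes have different ranges. The values on the left run from -0.35 to 0.13 and those on the right from -0.66 to 1.65.

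Tap1 and Tap2 encode the paired subunits of the peptide transporter, at chr17:34187553-34197225 and chr17:34203527-34216321. They moved apart with SETBP1-D868N. Tap1 measured 72.5, 74.6 and 73.9 CPM with luciferase and 68.2, 67.0 and 64.1 with SETBP1-D868N (log2 -0.15, SE 0.032, edgeR adjusted p = 0.00206). Tap2 measured 137, 129 and 132 CPM with luciferase and 151, 143 and 142 with SETBP1-D868N (log2 0.13, SE 0.032, edgeR adjusted p = 0.00514). Neither gene's groups overlapped, and Tap2 was the one member that rose. The ratio of Tap1 to Tap2 counts fell from 0.556 to 0.457 without overlap, the smallest p that 3 against 3 libraries allow (exact permutation p = 0.1, adjusted 0.175).

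With PF-9363 the transporter genes did not rise with the heavy chains and B2m. Tap1 measured 41.8, 38.4, 37.7 and 41.1 CPM with DMSO and 36.4, 41.1, 39.9 and 43.7 with PF-9363. The groups overlapped, with a log2 fold change of 0.02 and an interval from -0.15 to 0.19 (edgeR adjusted p = 0.861). Scaling by library size instead of TMM moves the median of all genes by -0.23 in this experiment, and under it Tap1 was called lower (log2 -0.21, adjusted p = 0.0287). Tap2 measured 142, 126, 149 and 170.1 CPM with DMSO and 118, 121, 125 and 102 with PF-9363. It fell by 0.34 on the log2 scale (SE 0.082, edgeR adjusted p = 0.000794), without overlap. The Tap1 to Tap2 ratio rose by 0.34 on the log2 scale (two-sided exact permutation p = 0.02857, adjusted 0.02857).

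Tapbp encodes tapasin and lies at chr17:33915899-33929292. It measured 261, 268 and 274 CPM with luciferase and 247, 233 and 234 with SETBP1-D868N, a log2 change of -0.17 (SE 0.030, edgeR adjusted p = 0.000558). With DMSO it measured 119, 127, 122 and 140.0 CPM and with PF-9363 308, 284, 299.5 and 318. Neither comparison had overlapping groups. The 2.38-fold rise with PF-9363 (log2 1.25, SE 0.064, edgeR adjusted p = 1.61e-16) had the smallest adjusted p among the 10 genes.

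Psmb8 and Psmb9 encode beta5i and beta1i, catalytic subunits of the inducible proteasome, at chr17:34197721-34201454 and chr17:34181987-34187764. Psmb8 measured 103, 98.1 and 102 CPM with luciferase and 108, 97.1 and 98.3 with SETBP1-D868N, so the groups overlapped. Its log2 fold change was 0.0003 with an interval from -0.08 to 0.08 (edgeR adjusted p = 0.996). Psmb9 measured 37.9, 41.9 and 40.4 CPM with luciferase and 31.1, 32.6 and 30.7 with SETBP1-D868N. It fell by 0.35 on the log2 scale without overlap (SE 0.044, edgeR adjusted p = 4.69e-05), close to the 0.34 of H2-Q7.

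Both fell with PF-9363. Psmb8 measured 65.3, 61.5, 56.9 and 70.5 CPM with DMSO and 50.9, 51.7, 55.6 and 48.6 with PF-9363 (log2 -0.30, SE 0.081, edgeR adjusted p = 0.00138). The DMSO 3 and PF-9363 3 libraries came close to each other, at 56.9 and 55.6 CPM, without overlap. Psmb9 measured 37.4, 35.5, 34.1 and 38.7 CPM with DMSO and 22.7, 23.6, 25.1 and 21.04 with PF-9363, a wide gap (log2 -0.66, SE 0.097, edgeR adjusted p = 5.07e-07). Psmb9 was thus the 1 member called lower in both comparisons, as were 4.40% of the 12376 genes tested in both.

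The third inducible subunit, Psmb10 (beta2i), is no member and went the other way, with 20.4 CPM in DMSO and 53.7 in PF-9363 libraries on average (log2 1.40, edgeR adjusted p = 2.20e-14). Each inducible subunit was set against the constitutive subunit of the same catalytic site, as a ratio of counts within a library. With PF-9363 the Psmb8 to Psmb5 ratio went from 1.58 to 1.06, the Psmb9 to Psmb6 ratio from 0.502 to 0.219 and the Psmb10 to Psmb7 ratio from 0.167 to 0.571. None of the 3 had overlapping groups, and each reached the smallest possible p (two-sided exact permutation p = 0.02857, adjusted 0.02857). The same held for all 7 ratios tested with PF-9363, where groups also did not overlap for 70.3% of all tested genes. The share among ratios of other gene pairs was not measured. Psmb5 and Psmb6 were themselves called higher (log2 0.28 and 0.54, edgeR adjusted p = 0.00442 and 2.80e-07) and Psmb7 lower (log2 -0.38, edgeR adjusted p = 5.28e-05). With SETBP1-D868N, Psmb5, Psmb6, Psmb7 and Psmb10 were not called (log2 0.10, 0.03, 0.07 and 0.08). The Psmb9 to Psmb6 ratio was lower without overlap (log2 -0.38, exact permutation p = 0.1, adjusted 0.175), and the Psmb8 to Psmb5 and Psmb10 to Psmb7 ratios had overlapping groups (log2 -0.10 and 0.01).

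**Figure D3:**
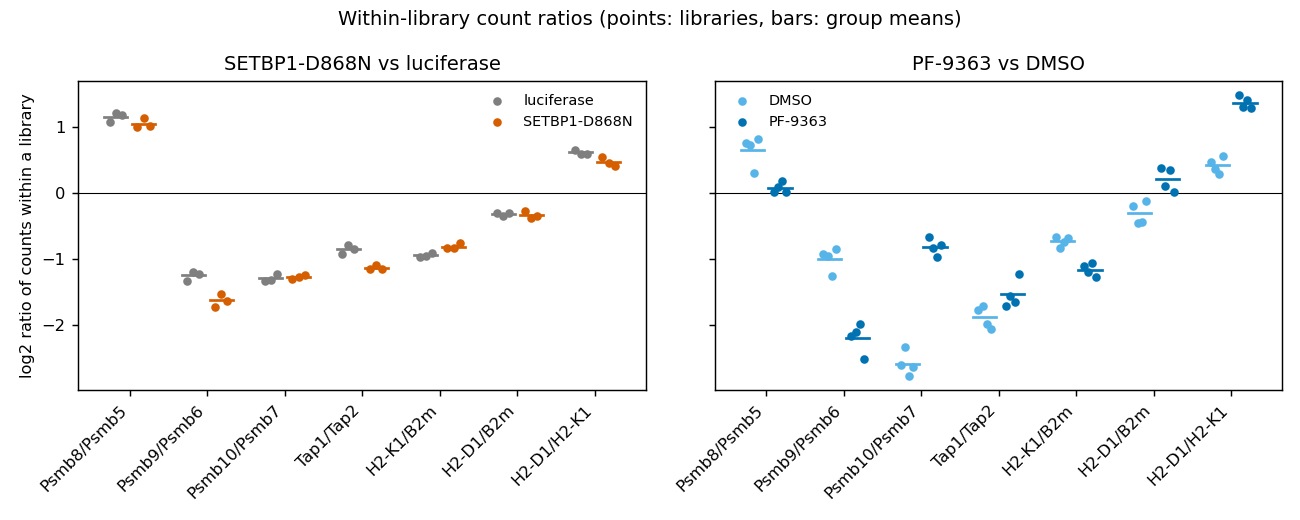
Log2 ratio of the counts of 2 genes in each library, with bars at group means, for 7 pairs of class I pathway genes. In the right panel the PF-9363 libraries lie below the DMSO libraries for Psmb8/Psmb5, Psmb9/Psmb6 and H2-K1/B2m and above them for the other 4 ratios.

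Non-coding genes of the opposite strand share exon bases with Psmb8, Tap2 and Tapbp. Gm20496 shares 14.7% of the exon bases of Psmb8, Gm15821 14.1% of those of Tap2 and Gm19412 24.9% of those of Tapbp. Gm20496 also shares 4.36% of those of Tap2. With SETBP1-D868N or luciferase, Gm20496 had 7 to 17 counts where Psmb8 had 6067 to 7085. With DMSO or PF-9363 its counts were 92.7% to 105% of those of Psmb8, while Gm15821 had 32.0% to 44.8% of the counts of Tap2 and Gm19412 26.9% to 30.9% of those of Tapbp. How strand was handled in counting is not given in the sources used here, and in the second experiment reads of these members and of the opposite strand cannot be told apart. The log2 fold changes with PF-9363 were -0.28 for Gm20496, -0.50 for Gm15821 and 1.19 for Gm19412, the same directions as for Psmb8, Tap2 and Tapbp. In the first experiment none of the 3 was called. Tap1 and Psmb9 share 212 exon bases on opposite strands, 3.87% and 5.79% of their exon lengths.

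Per exon length, as RPKM over all annotated exons of a gene, B2m was highest in all 4 groups, followed by H2-D1 and H2-K1. The lengths merge the exons of all annotated transcripts of a gene, from 860 bases for B2m to 5476 for Tap1. Where the transcripts in use are shorter than that, RPKM is too low, so the order between genes is approximate. With luciferase the means were 1120, 299 and 171 RPKM, then 73.8 for Tapbp, 36.5 ± 1.19 (SD, n = 3) for H2-T23, 35.1 ± 1.01 (SD, n = 3) for Tap2, 29.9 for Psmb8, 13.5 for Tap1, 10.9 for Psmb9 and 2.25 for H2-Q7. H2-T23 and Tap2 did not differ there beyond their spread. With SETBP1-D868N the order was the same except that Tap2 (38.4 ± 1.22, SD, n = 3) stood above H2-T23 (34.2 ± 1.43, SD, n = 3). With DMSO the first 3 genes measured 854, 232 and 151 RPKM and were followed by Tap2 at 38.8 ± 4.87 (SD, n = 4), Tapbp at 34.97 ± 2.57 and H2-T23 at 25.9 ± 4.42, of which Tap2 and Tapbp did not differ beyond their spread. Psmb8 (18.8 RPKM), Psmb9 (9.96), Tap1 (7.26) and H2-Q7 (1.30) came last. With PF-9363 B2m, H2-D1 and H2-K1 measured 1813, 704 and 238 RPKM. Tapbp (83.4 ± 3.94, SD, n = 4) and H2-T23 (81.3 ± 9.32, SD, n = 4) came next and overlapped, followed by Tap2 at 30.9. Psmb8 measured 15.3, Tap1 7.35 ± 0.558 and Psmb9 6.31 ± 0.460 RPKM, the last pair close, and H2-Q7 1.37.

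Read across the 2 comparisons, whose libraries are separate, 5 members were lower with SETBP1-D868N and higher with PF-9363, namely H2-K1, H2-D1, H2-T23, B2m and Tapbp, or 4 in the fits in which H2-T23 was not called with SETBP1-D868N (8 of 14). Of the 12376 genes tested in both, 16.8% showed that pair of calls. Tap2 had the reverse pair, as did 18.1% of genes.

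The other genes of the pathway were read from lists chosen with earlier results of these data known, each taken from the same fit. Among the other class I and class I-like heavy chains, 7 of 13 tested genes fell and 2 rose with SETBP1-D868N, led by H2-Q10 (log2 1.09), H2-M2 (-0.90), Fcgrt (-0.76) and Mr1 (-0.68). With PF-9363, 6 of 12 rose and 2 fell. H2-M2 went from a mean of 0.386 CPM with DMSO to 11.2 with PF-9363, and H2-T24 (log2 2.18), H2-Q6 (1.82) and H2-Q4 (1.60) also rose, with H2-Q6 another close copy. The DMSO mean of H2-M2 lay near the 0.272 to 0.299 CPM that a count of 0 allows there. That gene passed the expression filter only through the PF-9363 libraries, and the size of its rise is uncertain. The list's median was -0.33 in the first and 0.27 in the second comparison, the latter 0.04 under library size scaling (5 higher, 3 lower).

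Genes for peptide trimming, loading and folding moved in both directions. With SETBP1-D868N 6 of 10 rose and 1 fell, led by the chaperone Calr (log2 0.33), the aminopeptidase Lap3 (0.28), the chaperone Canx (0.22) and the hydrolase Blmh (0.18), with a list median of 0.11. With PF-9363 3 rose and 3 fell, led by Blmh (-0.86), the endoplasmic reticulum aminopeptidase Erap1 (0.75), Lnpep (0.74) and Pdia3 (-0.48), the oxidoreductase of the loading complex. The list median was 0.06, and scaling by library size gave a median of -0.17 with 6 falls.

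Among the other inducible proteasome genes, 1 of 4 was called with SETBP1-D868N, the activator subunit Psme2 (log2 -0.14), a call lost under library size scaling and without luciferase 1, luciferase 2 or SETBP1-D868N 2. With PF-9363 Psmb10, Psme2 (0.83) and Psme1 (0.22) rose and Pomp, the assembly chaperone, fell (-0.25, not called without DMSO 3). Of the 14 constitutive core subunits, 8 rose and 0 fell with SETBP1-D868N, led by Psma3 (0.18), Psma5 (0.18), Psma6 (0.13) and Psma7 (0.12), and none of the 14 log2 fold changes was below 0. The rises numbered 12 under library size scaling, 4 without luciferase 2, 5 without SETBP1-D868N 1 and 5 by DESeq2. With PF-9363 2 rose and 9 fell, with Psmb2 (-0.79), Psma5 (-0.75), Psmb6 (0.54) and Psma2 (-0.54) in front. The list medians were 0.09 and -0.26 (0.14 and -0.49 under library size scaling).

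Of 16 regulators of class I genes, 3 rose (6 under library size scaling) and 3 fell with SETBP1-D868N. Nlrc5, the transactivator of class I genes, fell (log2 -0.42, edgeR adjusted p = 0.000190), and Irf2 (-0.35) and Irf1 (-0.32) fell while Suz12 (0.22) rose. With PF-9363 8 rose and 6 fell. Nlrc5 was not called (log2 -0.0033, edgeR adjusted p = 0.986), while Irf1 rose (1.05), as did Eed (1.09), and Ezh2 (-1.87) and Suz12 (-1.12) fell. Ezh2, Suz12 and Eed encode parts of Polycomb repressive complex 2, so its subunits did not move in 1 direction.

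Most interferon signalling genes fell with SETBP1-D868N and rose with PF-9363. With SETBP1-D868N 10 of 11 tested genes fell, among them Jak2 (log2 -0.55), Irf9 (-0.37) and Stat2 (-0.31). With PF-9363 8 rose, led by Ifngr2 (1.82), Socs1 (1.60) and Jak2 (1.52) and 1 fell. Scaling by library size gave 3 falls there. The interferon genes Ifng and Ifna4 had no counts in any library, which allows up to 0.467 CPM in the shallowest. Among 15 interferon-stimulated genes outside antigen presentation, 8 fell and 1 rose with SETBP1-D868N, led by Ifit1 (-1.23), Usp18 (-0.71), Mx1 (-0.69) and Ifi27 (-0.63). With PF-9363 9 of 10 tested rose, with Usp18 at 2.96, Cxcl10 at 2.65 and Irf7 at 1.51, and Gbp3 fell (-1.80). The list medians were -0.25 and 1.02 for signalling and -0.62 and 1.00 for the stimulated genes. For the stimulated genes with PF-9363, library size scaling gave a median of 0.78 with 8 rises and 1 fall. Without the count filter 14 of these genes were tested, of which 9 rose and 1 fell, with a median of 0.74.

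**Figure D4:**
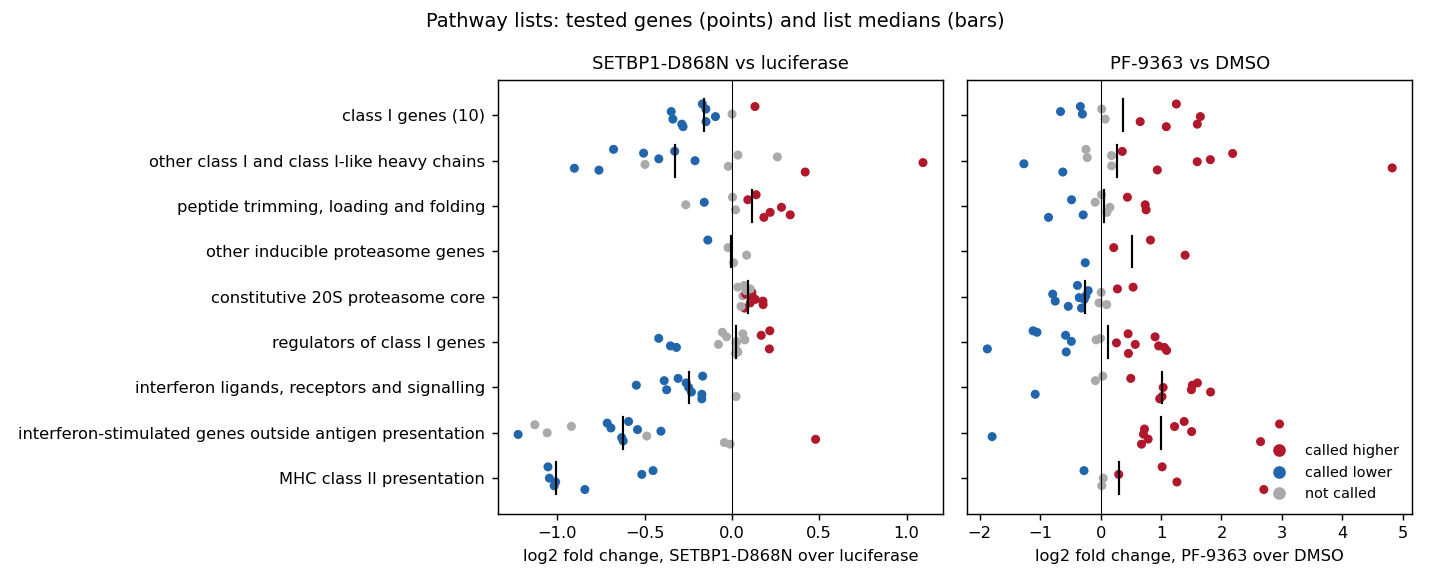
Log2 fold changes of the tested genes of each pathway list (points, coloured by call) with the list median (bar), SETBP1-D868N over luciferase on the left and PF-9363 over DMSO on the right, on different axes. The median of the MHC class II genes is the lowest of the plotted lists in the first comparison, at -1.01, beside -0.16 for the 10 class I genes.

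Class II presentation genes, which serve CD4 T cells and mark antigen-presenting cells, fell in 7 of 7 cases with SETBP1-D868N, led by H2-Eb1 (log2 -1.05), H2-Ab1 (-1.05), Ciita (-1.02) and H2-Aa (-1.01). With PF-9363 4 rose and 1 fell, led by Cd74 (2.70), H2-Aa (1.26), H2-Eb1 (1.02) and H2-DMa (0.30), and the 1 fall was not called by DESeq2 or when DMSO 4 or either of the libraries PF-9363 3 and 4 was left out. The summed level of the 7 genes went from 2165 to 2280 CPM with luciferase to 1091 to 1267 with SETBP1-D868N, and from 247 to 286 with DMSO to 837 to 1024 with PF-9363. The list median with PF-9363 was only 0.30, and groups did not overlap for 3 of the 7 genes, beside 70.3% of all tested genes. Under library size scaling that median was 0.07 with 3 rises, and leaving out PF-9363 1 also gave 3 rises.

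Markers of monocytes and macrophages moved in the same directions as the summed heavy chains. The 8 monocyte and macrophage markers summed to 975 to 1023 CPM with luciferase and 609.5 to 641 with SETBP1-D868N, with 8 of 8 called lower, and to 607 to 770 with DMSO and 3560 to 4239 with PF-9363, with 7 of 8 called higher. The 7 dendritic cell markers, of which Xcr1, Siglech and Cd209a were below 0.304 CPM on average in every group, were summed too. Their sum went from 105 to 122 CPM down to 73.0 to 84.8 with SETBP1-D868N (4 of 6 tested lower, 2 not called). With PF-9363 it went from 17.9 to 23.2 up to 122 to 156, but only 3 were tested, with 2 higher and 1 lower. The 6 neutrophil markers summed to 20650 to 21380 CPM with luciferase and 11150 to 13570 with SETBP1-D868N (6 lower), and to 13890 to 16980 with DMSO and 16640 to 18070 with PF-9363 (3 higher). The 6 mast cell and basophil markers summed to 4089 to 4211 and 4183 to 4265 CPM in the first experiment (4 higher, 2 lower) and rose from 875 to 1057 up to 3491 to 4345 in the second (5 higher). The 6 progenitor markers summed to 949 to 982 CPM with luciferase and 1120 to 1164 with SETBP1-D868N, but 3 were called higher and 3 lower. They summed to 464 to 481 with DMSO and 550.4 to 607 with PF-9363 (2 higher, 2 lower). Gata2 is also on the mast cell and basophil list, and Flt3 on the dendritic cell list. Erythroid markers summed to at most 16.4 CPM in any library. They went from 6.8 to 7.6 CPM with luciferase up to 14.7 to 16.4 with SETBP1-D868N (2 of 4 tested higher). With DMSO they summed to 3.8 to 6.0 and with PF-9363 to 6.4 to 12.45 (1 of 2 tested higher). Stromal and endothelial markers, chiefly Pecam1, summed to 425 to 429 CPM with luciferase and 421 to 440 with SETBP1-D868N. Their sum was 519.9 to 560.4 with DMSO and 386 to 424 with PF-9363 (1 higher and 1 lower of 3 tested). The part of these cell types in the class I values was not tested. DMSO 4, highest of the DMSO libraries for 9 of the 10 class I genes, was also highest for the monocyte and macrophage markers, at 770 CPM. The same library was highest for the neutrophil (16980 CPM), mast cell and basophil (1057), stromal and endothelial (560.4) and lymphocyte (1.18) markers. For the progenitor markers it was the lowest, at 464 CPM.

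Of the 10 genes, 9 lie on chromosome 17, in a stretch of 2.12 Mb from Tapbp to H2-T23. Psmb9, Tap1, Psmb8 and Tap2 sit next to each other within 34.3 kb, with 495 bases between the end of Tap1 and the start of Psmb8. These 4 neighbours did not move together. With SETBP1-D868N 1 rose and 2 fell, and with PF-9363 0 rose and 3 fell, with Tap1 not called. Without the members, 23 of 109 tested genes of the stretch rose and 28 fell with SETBP1-D868N, and 34 of 97 rose and 33 fell with PF-9363, with medians of -0.03 and 0.06.

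**Figure D5:**
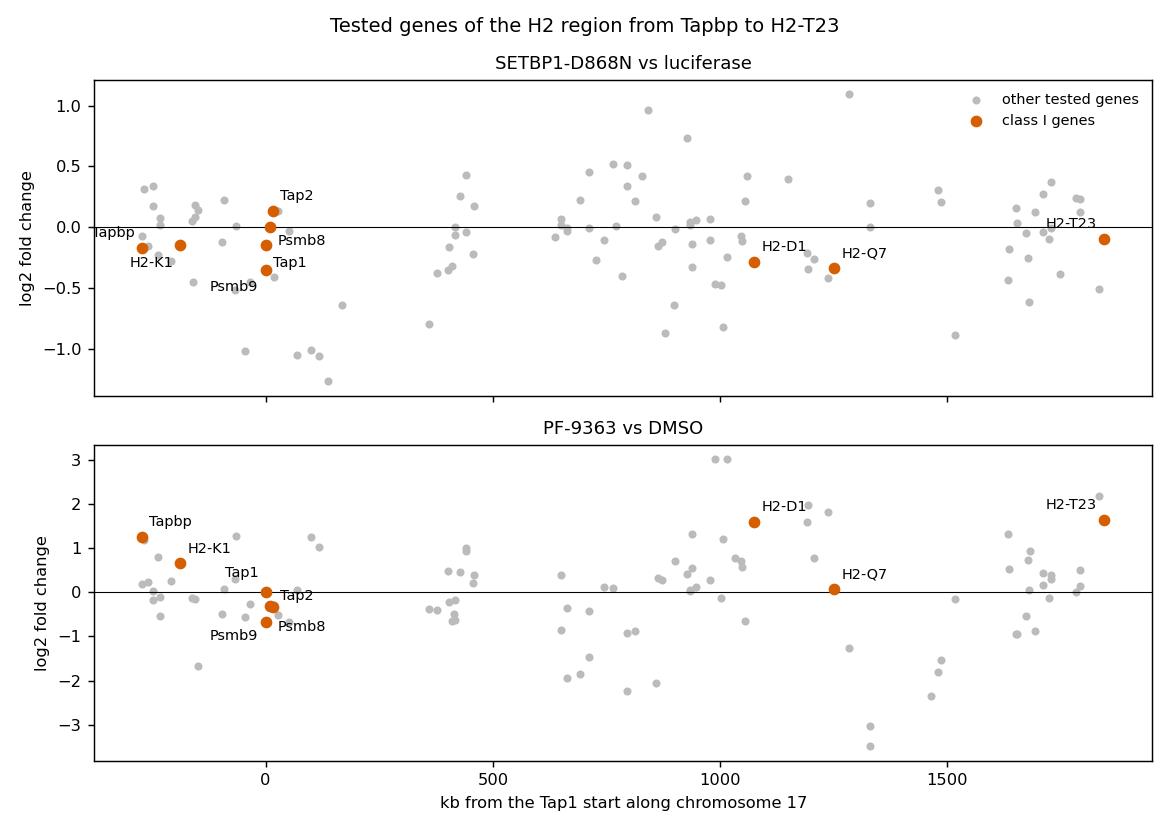
Log2 fold change of each tested gene from Tapbp to H2-T23 against its distance in kb from the Tap1 start, SETBP1-D868N over luciferase above and PF-9363 over DMSO below. The class I genes are orange and named; Tapbp, H2-K1, H2-D1 and H2-T23 lie above 0 in the lower panel, while Psmb9, Psmb8 and Tap2 beside Tap1 lie below it.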

How the data were processed

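Messenger RNA was sequenced in 14 libraries of 4 groups, assigned from the labels. Raw counts for each gene symbol were deposited by the authors in 1 table per experiment, per the labels. STAR, DESeq2 and the builds GRCm38 and mm10 are named in the submitters' processing notes, without version or role. The counting program, annotation and strand handling are not given in the sources used here. Libraries of the luciferase and SETBP1-D868N groups came from 500 ng of RNA and a Watchmaker kit, and the others from 100 ng at Novogene, per the labels' protocols.

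Each table was analysed on its own with edgeR 4.0.16 in R 4.3.3: filterByExpr (minimum count 10, minimum total 15), TMM, glmQLFit with robust estimation, glmQLFTest, and Benjamini-Hochberg adjustment over all genes tested. The SETBP1-D868N and luciferase libraries held 60147266 to 68730322 counts each, and the PF-9363 and DMSO libraries 7083731 to 10359093. On simulated data with 200 genes changed 2-fold, 88.5% were recovered among 15794 genes for SETBP1-D868N and 87.5% among 13456 for PF-9363 (99.4% in each among genes with a mean count of at least 50), with 4.84% and 4.89% of calls false. The simulation does not cover changes as small as those of the members with SETBP1-D868N (log2 -0.35 to 0.13). Nor does it cover scaling when as many genes change as were called here.

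Ratios of counts within a library (pseudocount 0.5) were compared with a two-sided exact permutation test and adjusted over 7 ratios. Positions and exon lengths came from GENCODE M21 (53292 of 55367 symbols matched), promoters from RefSeq GRCm38.p6. The motif GAANNGAAA was added after the sequences were seen. The members and lists were chosen with earlier results of these data known. From each list the text names at most the 4 called genes of largest absolute log2 change in that comparison, and Nlrc5, Irf1, Psmb5, Psmb6, Psmb7 and Psmb10; 1 further gene is not reported here. The opposite-strand genes and the calls in both comparisons were examined after values were seen. Alternatives were RLE or library size scaling, other count filters, DESeq2 1.42.0, limma-voom 3.58.1, no robust estimation, the replicate number as a block, summed heavy chains, a pseudocount of 5 and leaving out each library in turn.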

Additional observations from a re-analysis of the deposited data

Results flagged for a closer look

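The H2-T23 level of DMSO 4, 93.8 CPM, lay far above those of the other 3 DMSO libraries, which ranged from 67.1 to 69.2 CPM. Its gap to the nearest was 0.918 of the whole range, above Dixon's critical value for 4 samples at the 95% level. It was the only such value among the 34 groups of 4 checked, and chance marks about 1 in 20. DMSO 4 was also the highest DMSO library for 9 of the 10 class I genes, and its monocyte and macrophage markers summed to 770 CPM beside 607 to 668 in the others. That library was highest for the neutrophil, mast cell and basophil, lymphocyte, and stromal and endothelial markers too, and lowest for the progenitor markers. Without DMSO 4 the log2 fold changes with PF-9363 were 1.77 for H2-T23 (edgeR adjusted p = 3.65e-16) and 1.69 for H2-D1 (edgeR adjusted p = 4.58e-16).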

How the results depend on the processing

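The counts of members called did not move by more than 1.5 times under any alternative except summing the heavy chains, where 5 units of 7 were lower with SETBP1-D868N and 3 higher with PF-9363 by construction, since 4 members become 1. Of the single values with PF-9363, 153 kept their direction and side of the threshold and 7 changed direction, all of H2-Q7 or Tap1, which were not called. With SETBP1-D868N, 125 kept both, 8 lost the call (all of H2-T23) and 7 changed direction (all of Psmb8). Psmb8 was -0.0077 under RLE scaling and under DESeq2, -0.0051 with the mean count filter, and -9e-04 under limma-voom. Leaving out 1 library gave -0.0528 to 0.0234 for Psmb8 with SETBP1-D868N, -0.0176 to 0.0704 for Tap1 and -0.0656 to 0.266 for H2-Q7 with PF-9363. Under library size scaling H2-Q7 was -0.154 and Tap1 -0.213 with PF-9363. Tap1 was -0.0037 without the filter, and the cause was not tested. The count ratios Psmb10/Psmb7 and H2-D1/B2m with SETBP1-D868N ranged from -0.0079 to 0.0448 and from -0.0349 to 0.013 when 1 library was left out.

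In the replicate block fit, H2-T23 with SETBP1-D868N had an adjusted p of 0.105 and Psmb8 was -8e-04, and no other call of a member changed. The numbers do not pair the libraries. Same-numbered libraries had correlations of deviations from -0.097 to -0.037 in the first experiment and from -0.040 to 0.0075 in the second, and none correlated best with its own number. With PF-9363 the 7 ratios kept their direction, but the exact permutation p of the block cannot go below 0.125, nor that of 4 against 3 libraries below 0.05714. Depth limits H2-Q7 most, at 38 to 84 counts in the second experiment.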

Other observations

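The 5 other genes whose pair of log2 fold changes lay nearest the members' medians (-0.16 with SETBP1-D868N and 0.36 with PF-9363), among 8444 genes of at least 10 CPM in both experiments, were Rin3, Pitpnm1, Tnrc18, Myl12a and Carhsp1, at Euclidean distances of 0.0068 to 0.0187 over the 2 values. Rin3 measured -0.17 and 0.36, and Carhsp1 -0.18 and 0.36. The median with PF-9363 falls in the gap between H2-Q7 (0.08) and H2-K1 (0.65), because the set split there. No member lay near it, so these 5 genes are close to that midpoint and not to any of the 10 genes.

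The promoters holding both the kappa B letters and either interferon element numbered 8 of 32851, from 7 symbols. These were H2-K1, H2-D1, H2-Q7 and H2-Q6, along with Col6a4, Tert and Vegfa, a combination searched after the sequences were seen.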
